A study of Homo sapiens with 12 samples.

Results

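GLI1, GLI2, GLI3 and ZIC2 are the 4 zinc-finger transcription factors of the GLI and ZIC families among the 199 genes of the nCounter Dx Stem Cell Panel, and their mRNA was followed in all 12 samples of the experiment. They were chosen by gene family, with no threshold on a measured value but with earlier results of these data known. The cells were LX-2, an established line of activated human hepatic stellate cells (HSCs), the collagen-producing cells of the fibrotic liver. Each sample came from LX-2 cells grown in medium with 2% serum and transfected with 10 pmol/ml of a mimic, either miR-25 or a non-specific control mimic derived from a nematode miRNA, and RNA was taken after 24 h or 48 h. There were 3 control and 3 miR-25 samples at each time point. Each of the 6 transfections (replicates A, B and C at 24 h and at 48 h) gave 1 control and 1 miR-25 sample, and only the samples of 1 transfection form a pair. LX-2 is 1 cell line, so the spread between samples is that between transfections and assays, not between donors. The fraction of transfected cells, measured with a fluorescently labelled control RNA in a separate well of each transfection, was 0.59 to 0.81 at 24 h and 0.42, 0.61 and 0.65 in replicates A, B and C of 48 h. Part of the cells in each sample may thus hold no mimic.

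In Hedgehog signalling, a ligand such as sonic hedgehog releases the membrane protein SMO from inhibition, and SMO then acts on the GLI factors, which are otherwise held by SUFU, phosphorylated by PKA, GSK3 and CK1 kinases and cut or degraded. GLI2 is mainly an activator, GLI3 is mainly known in its shortened form as a repressor, and GLI1 is an activator whose own gene is a GLI target, so its mRNA is often read as a measure of the pathway. ZIC2 belongs to a related zinc-finger family, binds GLI-like DNA sites and is known from the developing forebrain and from pluripotent cells. In the liver, HSCs are known to respond to Hedgehog ligands during activation.

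In the assay a pair of probes binds 1 stretch of each mRNA, and a fluorescent barcode on 1 probe is counted without amplification. The stretches targeted are shown here because each value below is the count of that one stretch and not of a whole transcript. They are given as listed for the panel, 5′ to 3′, whole (100 bases) for GLI1 and GLI3 and as the first 30 of 100 bases for GLI2 and ZIC2, with the mature miR-25 from RefSeq (GRCh38.p14), in which capitals mark the seed (bases 2 to 8).
hsa-miR-25-3p: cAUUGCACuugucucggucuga
GLI1 (NM_005269.1): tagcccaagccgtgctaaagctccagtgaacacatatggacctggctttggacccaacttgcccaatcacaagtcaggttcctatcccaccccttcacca
GLI2 (NM_005270.3): ttcaggagcacattctgattccaggtttgg
GLI3 (NM_000168.5): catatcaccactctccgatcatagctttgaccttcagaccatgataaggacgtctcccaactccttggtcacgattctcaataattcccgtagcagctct
ZIC2 (NM_007129.2): aaccaaacctccctgctaatctccatgccc
The letters GTGCAAT, the complement of the seed on the mRNA strand, were in none of the 4 targets and in 0 of the 193 panel targets searched on that strand. These letters were not looked for in the rest of the transcripts.

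The total count over the panel genes was 321243 to 409581 at 24 h and 107377 to 200821 at 48 h, and the positive control probes, which are added to each assay in fixed amount, gave 76248 to 87475 and 51306 to 59004 counts. Time point, transfection and depth cannot be told apart, since each transfection belongs to 1 time point. Counts are given below as deposited or as scaled counts, that is, divided by the total of the sample and multiplied by the mean total. The background level of a sample was set at 2 SD over the mean of its 8 negative control probes, which came to between 10.2 and 16.5 counts at 24 h and between 5.52 and 8.40 at 48 h, and a gene was called above background where its count exceeded that level. Of the markers of the cell type, COL1A1 and CDH2 were above background in 12 of 12 samples. Markers of other cells were low: CD3D, CD8B, SOX2, PDX1 and S100B were above background in 0 samples, MYOD1, CDH1 and CD8A in 1, ACTC1 in 2, KRT15 in 5, NANOG and SOX1 in 8, CD4 in 11 and POU5F1 in 12. As RNA came from whole cultures, fewer cells with an mRNA and less of it per cell cannot be told apart. Replicate A of 48 h lay apart from B and C in both of its samples, and the comparisons of time points, the ratios between members, the nearest profiles and the miR-25 effect are given with and without it. Its positive control probes, with 55988 and 59004 counts, were within or just above the 51306 to 58234 of B and C. Its totals over the panel genes were 107377 (control), the lowest of all samples, and 155334 (miR-25), against 140748 to 200821 in B and C. GAPDH made up 32.7% and 33.4% of these totals in A and 29.1% to 30.6% in B and C.

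All 3 GLI mRNAs were detected in every sample, while ZIC2 was detected throughout at 24 h and above background in 1 of the 4 samples of 48 h replicates B and C. GLI2, the main activator of the family, had 586, 595 and 614 counts in the control samples and 696, 716 and 723 in the miR-25 samples at 24 h, and 230, 248 and 432 against 332, 380 and 486 at 48 h. Those counts are 31.3 to 65.4 times the background level. GLI3, the main repressor, had 274, 288 and 293 counts in control samples and 313, 336 and 336 in miR-25 samples at 24 h, and 95, 126 and 142 against 129, 141 and 196 at 48 h, or 12.9 to 30.4 times background. The counting error of a single count (its coefficient of variation) was at most 6.59% for GLI2 and 10.3% for GLI3.

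GLI1, the target and activator, had 47, 65 and 70 counts in control samples and 57, 74 and 85 in miR-25 samples at 24 h. Its counts at 48 h were 14, 35 and 60 in control samples and 16, 54 and 72 in miR-25 samples, the lowest of each in replicate A. It was above background in all 12 samples, by 1.90 to 9.78 times, with a counting error of 10.8% to 26.7%. ZIC2 had 36, 49 and 61 counts in control samples and 51, 56 and 58 in miR-25 samples at 24 h, which is 3.52 to 5.22 times background. Replicate A of 48 h had 77 (control) and 102 (miR-25) ZIC2 counts, but B had 6 and 4 and C had 7 and 9. Of these last 4 counts, only the 9 of the miR-25 sample of replicate C was above background, by 1.07 times. ZIC2 was therefore above background in 9 of 12 samples, in 11 of 12 with the level at 1 SD over the negative mean and in 8 of 12 with 3 SD. Probes differ in efficiency and each covers 1 stretch, so counts were not compared between the genes.

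**Figure D1:**
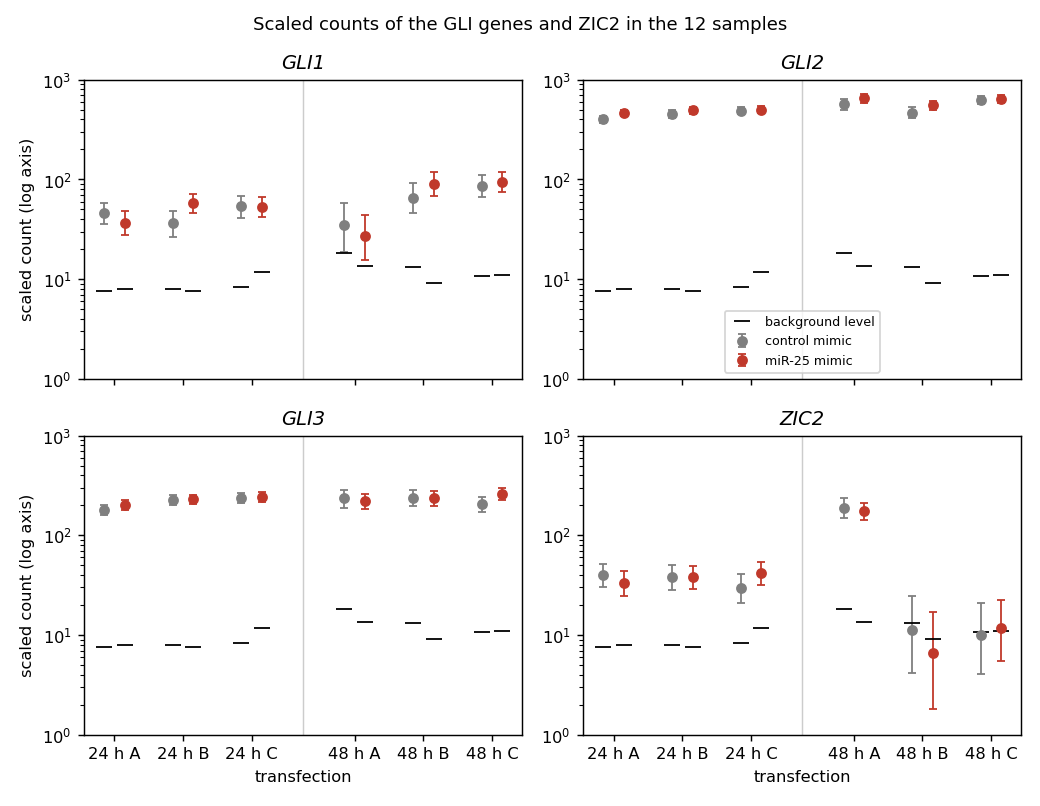
Scaled count (log axis) of GLI1, GLI2, GLI3 and ZIC2 in each transfection, grey points for the control and red points for the miR-25 sample, with the exact Poisson 95% interval of the count as bars and the background level of the sample (2 SD over the mean of its negative probes) as black dashes. GLI2 and GLI3 lie far above background throughout, GLI1 is lowest in 48 h A, and ZIC2 is highest in 48 h A and at about the background level in 48 h B and C.

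The first comparison asked how the genes differed between 48 h and 24 h. With all samples, none of the 4 genes passed the test in either mimic. Scaled counts of GLI2 were 449 ± 44.4 (SD, n = 3) in control samples at 24 h and 553 ± 79.9 at 48 h, and 486 ± 20.1 and 615 ± 53.0 in miR-25 samples. The log2 fold change was 0.30 (SE, the standard error, 0.14, adjusted p = 0.186, edgeR's quasi-likelihood test with Benjamini-Hochberg adjustment over 136 genes) in control samples and 0.34 (SE 0.10, adjusted p = 0.0909, edgeR) in miR-25 samples. In the miR-25 samples GLI2 had 463 to 502 at 24 h against 553 to 649 at 48 h. In the control samples the 467 of 48 h replicate B lay within the 403 to 491 of 24 h. GLI3 had scaled counts of 215 ± 30.8 and 226 ± 17.7 in control samples and of 225 ± 20.2 and 238 ± 19.5 in miR-25 samples (SD, n = 3). Its log2 fold changes of 0.07 (SE 0.15) and 0.09 (SE 0.12) had adjusted p-values of 0.755 and 0.662 (edgeR), and its groups overlapped in both mimics.

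For GLI1 the scaled counts were 45.3 ± 8.66 and 62.4 ± 26.3 in control samples and 49.4 ± 11.1 and 70.8 ± 37.7 in miR-25 samples (SD, n = 3), with log2 fold changes of 0.51 (SE 0.32, adjusted p = 0.306, edgeR) and 0.53 (SE 0.43, adjusted p = 0.436, edgeR). ZIC2 had 35.9 ± 5.43 and 70.5 ± 104 in control samples and 37.7 ± 4.43 and 64.2 ± 95.2 in miR-25 samples. The SD of ZIC2 at 48 h was larger than its mean, and its log2 fold changes of 0.81 (SE 0.97, adjusted p = 0.579, edgeR) and 0.73 (SE 0.98, adjusted p = 0.638, edgeR) were smaller than their SEs. Over the panel 7 of 136 genes (5.15%) passed the test in control samples and 10 (7.35%) in miR-25 samples, against 0 of the 4 members in each. At an unadjusted p under 0.05 edgeR gave 42 and 43 genes, with GLI2 in miR-25 samples as the only member. DESeq2 called 22 and 33 genes, GLI2 in miR-25 samples among them (adjusted p = 0.0378, DESeq2), and limma (pseudocount 1) called 6 and 7, with no member.

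Without replicate A of 48 h, GLI1 and ZIC2 passed the test in both mimics and in opposite directions. This replicate was left out after its values had been seen. Among the tested genes, ZIC2 and GLI1 ranked 1 and 8 by fold between it and 48 h replicates B and C. The p-values for 48 h against 24 h without it thus follow a choice made on the tested values and are descriptive. Control and miR-25 samples came from the same transfections, so calls in both mimics are not independent. ZIC2 fell from 29.7 to 41.8 scaled counts in the 6 samples of 24 h to 6.67 to 11.9 in the 4 samples of 48 h replicates B and C. The log2 fold change was -1.75 (SE 0.30, adjusted p = 0.00201, edgeR) in control samples and -1.96 (SE 0.35, adjusted p = 0.00225, edgeR) in miR-25 samples. With each count of 48 h B and C raised to the background level of its sample where it was below, ZIC2 was 3.25-fold lower than at 24 h, the means being over 4 and 6 samples. This is no lower bound, since the exact Poisson 95% upper limits of these counts, 10.2 to 17.1, lie above the background levels. The fold change below that level is not measured by these counts. GLI1 rose from 36.4 to 57.9 scaled counts at 24 h to 65.9 to 95.0 in 48 h B and C. That was 1.71-fold in control samples (log2 fold change 0.77, SE 0.22, adjusted p = 0.0231, edgeR) and 1.88-fold in miR-25 samples (log2 fold change 0.91, SE 0.22, adjusted p = 0.00914, edgeR).

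Of the cell type markers, COL1A1, CDH2, CD4 and POU5F1 had enough counts to be tested. In the same comparison 39.7% (control) and 45.6% (miR-25) of the panel genes tested were called. Without replicate A of 48 h, COL1A1 had log2 fold changes of 0.64 (adjusted p = 0.000918, edgeR) in control and 0.60 (adjusted p = 0.000181, edgeR) in miR-25 samples, and CDH2 had -0.67 (adjusted p = 0.000132, edgeR) and -0.65 (adjusted p = 0.000167, edgeR). CD4 had 1.33 (adjusted p = 0.00210, edgeR) and 0.63 (adjusted p = 0.0554, edgeR). POU5F1 was called in neither, with -0.27 (adjusted p = 0.483, edgeR) and -0.04 (adjusted p = 0.951, edgeR). Scaled by positive control probes, CDH2 was at -1.24 and -1.09 and still called, while COL1A1 was at 0.09 and 0.15 and CD4 at 0.73 and 0.18, with no call. With all samples CDH2 was called in miR-25 samples (-0.53, adjusted p = 0.0499, edgeR). The part of these markers in the values of the members was not tested.

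GLI2 then passed the test in miR-25 samples, with a log2 fold change of 0.30 (SE 0.10, adjusted p = 0.0293, edgeR), and not in control samples (0.29, SE 0.15, adjusted p = 0.124, edgeR); the difference between mimics is given below with all samples. GLI3 passed in neither, with 0.04 (adjusted p = 0.870, edgeR) and 0.14 (adjusted p = 0.344, edgeR). The members passing were 2 of 4 in control samples and 3 of 4 in miR-25 samples, while 54 of 136 genes (39.7%) and 62 (45.6%) passed over the panel, so that calls were frequent for the panel as a whole. With positive control probes in place of the total, the median of all tested genes shifted to -0.47 in control and -0.38 in miR-25 samples, and ZIC2 was at -2.34 (adjusted p = 1.585e-07, edgeR) and -2.41 (adjusted p = 1.051e-09, edgeR). On that scale GLI1 had 0.20 (adjusted p = 0.595, edgeR) and 0.47 (adjusted p = 0.0491, edgeR), and GLI2 turned to -0.25 and -0.14, above the median of the panel and with no call. In control samples the call of GLI1 was also lost with DESeq2 (adjusted p = 0.0578) and without any 1 of 24 h replicate A, 24 h replicate B or 48 h replicate C, with adjusted p from 0.0505 to 0.192 (edgeR). In miR-25 samples it was lost without 48 h replicate C (adjusted p = 0.0547, edgeR). The call of ZIC2 held in each of the 15 alternatives, of 16, in which it was tested, in both mimics. All of these leave out 48 h replicate A, where ZIC2 was the gene furthest apart. The number of calls held thus follows the same choice and is descriptive as well. With replicate A in, ZIC2 had 0.81 and 0.73 with no call. The call of GLI2 in miR-25 samples held in 8 of 16. It was lost with reference genes as the scale (adjusted p = 0.186, edgeR), without 24 h replicate C (adjusted p = 0.0614, edgeR) and without 48 h replicate C (adjusted p = 0.261, edgeR), among others. GLI2 was also called with both samples of a transfection summed (adjusted p = 0.0491, edgeR), a fit that adds the counts of both mimics. That fit is counted among the 16 alternatives of each mimic. Without 48 h replicate B, which left 1 control sample at 48 h, GLI2 had 0.48 in control samples. The remaining alternatives for control samples gave no call of GLI2.

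**Figure D2:**
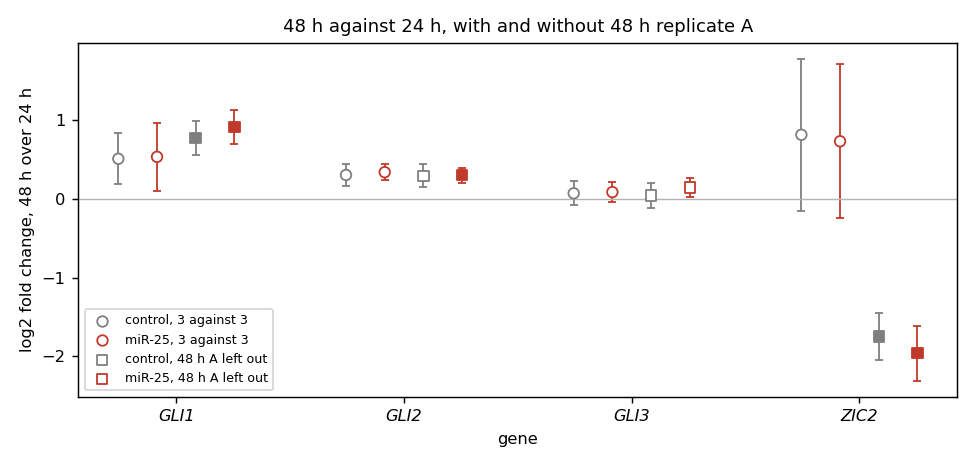
Log2 fold change of 48 h over 24 h for each gene (edgeR, bars are the SE), grey for control and red for miR-25 samples, circles with all 3 transfections per time point and squares with 48 h replicate A left out; filled symbols passed an adjusted p of 0.05 over 136 genes. ZIC2 changes from 0.81 and 0.73 to -1.75 and -1.96 when replicate A is left out, and GLI1 from 0.51 and 0.53 to 0.77 and 0.91.

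Replicate A of 48 h itself was compared with B and C as values only, since 1 transfection is no group. ZIC2 was the gene furthest apart among the 136 tested. Its scaled counts in A were 190 (control) and 174 (miR-25) against 6.67 to 11.9 in B and C, a ratio of 18.2 between the means, or 16.1 with B and C set to no less than background. Compared with 24 h, ZIC2 in replicate A was 4.95 times the mean of the 6 samples. GLI1 was apart in the opposite direction, with 34.6 and 27.3 in A against 65.9 to 95.0 in B and C, a ratio of 0.366, and its range in A lay below that of 24 h. GLI2, with 568 and 649 against 467 to 642 (ratio 1.06), and GLI3, with 235 and 220 against 205 to 259 (ratio 0.971), overlapped. Lying apart was frequent: both samples of A were above (35) or below (57) all samples of B and C for 92 of 136 genes. At 24 h replicate A lay apart from B and C in the same way for 69 of 136 genes. A difference of at least 2-fold between A and the mean of B and C was seen for 2 of the 4 members and for 17 of 136 genes (12.5%), 3 higher and 14 lower in A. ZIC2 was first of the 136 by fold and GLI1 the eighth. In the same comparison at 24 h, 0 of 136 genes reached 2-fold, and the ratios of the members were 0.823 for GLI1, 0.893 for GLI2, 0.817 for GLI3 and 0.989 for ZIC2.

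ZIC2 was high in both samples of replicate A, and its ratio of miR-25 to control in this pair was 0.916. The markers of neural cells, where ZIC2 is known, summed to 6.83 to 27.2 scaled counts in A, 6.60 to 18.8 in B and C and 10.8 to 18.6 at 24 h. Of these, SOX1 was above background in 8 of all 12 samples and S100B in 0. The markers of pluripotent cells summed to 34.6 to 42.7, 30.4 to 38.3 and 25.9 to 57.7, with POU5F1 above background in 12 samples, NANOG in 8 and SOX2 in 0. The mesenchymal pair COL1A1 and CDH2 summed to 5200 to 6222 in A against 6668 to 8018 in B and C and 7397 to 7686 at 24 h, but the genes went opposite ways: COL1A1 in A was 0.390 of the mean of B and C, and CDH2, N-cadherin, was 1.34 of it. T cell markers summed to 32.1 to 35.8 in A and 53.3 to 77.2 in B and C. Over the 12 samples CD4 had the highest mean count of these 4 genes, 28.8, and in A it was 0.292 of the mean of B and C. In A 2 of the 4 genes were above background in at least 1 sample, and in B and C 1 was. Epithelial markers summed to 12.3 to 13.7 in A and 8.33 to 14.5 in B and C, muscle markers to 6.83 to 9.88 and 6.60 to 26.4, and PDX1 to 2.47 to 3.41 and 1.45 to 3.77. Replicate A of 48 h also had the lowest transfected fraction of all transfections, 0.42. The part of the transfected fraction and of the COL1A1, CDH2 and CD4 levels in the values of ZIC2 and GLI1 was not tested.

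**Figure D3:**
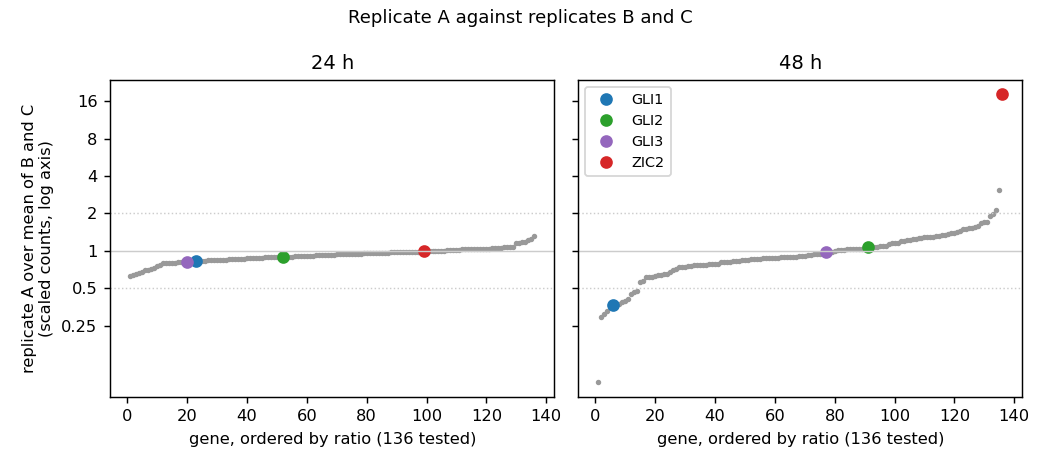
Ratio of replicate A to the mean of replicates B and C (scaled counts, log axis) for the 136 tested genes in ascending order at 24 h and 48 h, with the 4 members coloured and dotted lines at 2-fold. At 24 h all genes lie within 2-fold, and at 48 h ZIC2 stands alone at 18.2 while GLI1 is at 0.366 and GLI2 and GLI3 are close to 1.

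The second comparison asked whether miR-25 changed these mRNAs, as the ratio of miR-25 to control within each transfection. By the sample labels, miR-25 expression relative to control was 62.34, 192.53 and 350.13 in replicates A, B and C of 24 h. It was 347.45, 482.36 and 681.22 in those of 48 h. How the ratios depend on these levels was not tested. No gene of the 4 passed the test. In GLI1 the pairs A, B and C of 24 h gave 0.804, 1.59 and 0.995 and those of 48 h gave 0.790, 1.37 and 1.10, which lay on both sides of 1 at each time point. The counting interval excluded 1 in 24 h replicate B alone (1.11 to 2.27). The mean ratio was 1.13 ± 0.41 at 24 h and 1.08 ± 0.29 at 48 h (SD, n = 3 pairs), so the spread between pairs was larger than the distance from 1. The log2 fold changes were 0.11 (SE 0.17) and 0.19 (SE 0.21), with adjusted p-values of 0.951 and 0.734 (edgeR).

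GLI2 gave 1.15, 1.09 and 1.02 in the pairs of 24 h and 1.14, 1.18 and 1.03 in those of 48 h. All were above 1, with counting intervals that excluded 1 in 24 h replicate A (1.03 to 1.28) and 48 h replicate B (1.01 to 1.40). The log2 fold change was 0.12 (SE 0.057, adjusted p = 0.728, edgeR) at 24 h, 0.14 (SE 0.070, adjusted p = 0.385, edgeR) at 48 h and 0.13 (SE 0.045, unadjusted p = 0.0114, adjusted p = 0.193, edgeR) over both. With positive control probes as the scale, which shifted the median of all genes to 0.27 at 48 h and 0.19 over both, GLI2 had 0.43 (adjusted p = 0.0120, edgeR) and 0.31 (adjusted p = 0.00724, edgeR). GLI3 had 0.37 (adjusted p = 0.0328, edgeR) and 0.25 (adjusted p = 0.0278, edgeR) on that scale, on which 51 and 48 of 136 genes were called, all higher with miR-25.

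GLI3 gave 1.13, 1.01 and 1.02 in the pairs of 24 h and 0.939, 0.990 and 1.26 in those of 48 h, and the counting interval excluded 1 in 48 h replicate C (1.01 to 1.56). Its mean ratio was 1.05 ± 0.066 at 24 h and 1.06 ± 0.17 at 48 h (SD, n = 3 pairs), with adjusted p-values of 0.858 and 0.705 (edgeR). ZIC2 had ratios of 0.825, 1.01 and 1.41 at 24 h and 0.916, 0.590 and 1.17 at 48 h. The last 2 rest on 4 to 9 counts, with counting intervals of 0.167 to 2.09 and 0.437 to 3.15, and the precise pair is replicate A, at 0.681 to 1.23. Adjusted p-values of ZIC2 were 0.957 and 0.759 (edgeR). The exact two-sided sign-flip permutation test over the 6 pairs, whose smallest possible p is 0.03125, gave 0.5625 for GLI1, 0.03125 for GLI2, 0.34375 for GLI3 and 0.6875 for ZIC2, unadjusted for the number of genes.

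Over the panel edgeR called 0 of 136 genes (0.0%) at 24 h. It called 1 (0.735%) at 48 h. With the time points together it called 0 (0.0%), and the miR-25 effect differed between 24 h and 48 h for 0 genes (0.0%). Among the members 0 of 4 were called in each. At an unadjusted p under 0.05 there were 9, 17, 26 and 8 genes, GLI2 over both being the only member. DESeq2 called 0, 1, 1 and 1 gene and limma (pseudocount 1) 0, 1, 1 and 0, no member among them. For the difference between time points the members had adjusted p-values of 0.899 to 0.974 (edgeR) and log2 values of 0.07 (GLI1), 0.03 (GLI2), 0.03 (GLI3) and -0.18 (ZIC2). Without replicate A of 48 h no member was called for miR-25 either, and the values at 48 h were 0.26 (GLI1), 0.12 (GLI2), 0.18 (GLI3) and -0.15 (ZIC2), each with an adjusted p of 0.785 or more (edgeR).

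**Figure D4:**
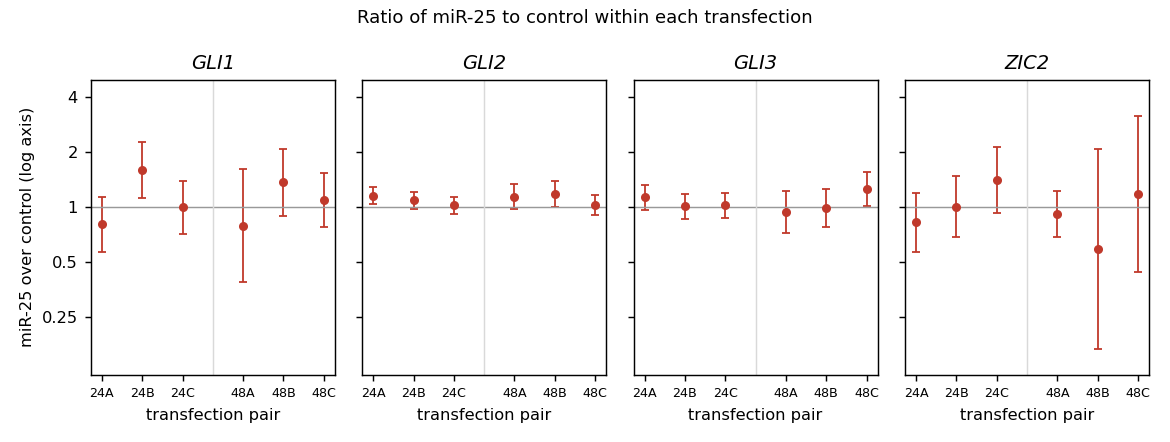
Ratio of miR-25 to control (log axis) in each of the 6 transfections for GLI1, GLI2, GLI3 and ZIC2, with the 95% counting interval as bars. GLI2 is above 1 in all 6 pairs at 1.02 to 1.18, GLI1 and ZIC2 lie on both sides of 1, and the intervals of ZIC2 in 48 h B and C are the widest.

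Ratios between members within a sample do not depend on how samples are scaled. The ratio of GLI2 to GLI3 counts was 2.00 to 2.29 in the 6 samples of 24 h and 1.97 to 3.04 at 48 h, so that the ranges overlapped. As means over transfections, its log2 was 1.09 ± 0.074 at 24 h and 1.33 ± 0.19 at 48 h (SD, n = 3 transfections), a difference of 0.23 with an exact two-sided permutation p of 0.2, the smallest possible being 0.1. GLI1 to GLI2 had a log2 ratio of -3.32 ± 0.096 at 24 h and -3.28 ± 0.89 at 48 h (exact permutation p = 1.0). The spread at 48 h came from replicate A, at -4.57 and -4.04 in its samples, below all 6 samples of 24 h (-3.65 to -3.09), while the samples of B and C lay above them at -2.85 to -2.62. Without replicate A the log2 ratio at 48 h was 0.56 higher than at 24 h (exact two-sided permutation p = 0.1, the smallest that 3 against 2 transfections allow). GLI1 to GLI3 was then 0.75 higher and likewise without overlap, and GLI2 to GLI3 was 0.19 higher with overlap (exact permutation p = 0.1 and 0.3). The ratios with ZIC2 were wider still at 48 h, with SDs of 2.38 to 3.27 on the log2 scale against 0.127 to 0.222 at 24 h. Without replicate A those of GLI1, GLI2 and GLI3 to ZIC2 were 2.75, 2.19 and 2.00 higher at 48 h, with ZIC2 counts of 4 to 9 in them. Over the 6 ratios the p-values adjusted by Benjamini-Hochberg were 1.0 for time with all transfections and 0.12 to 0.3 without 48 h replicate A, and no ratio passed the test of miR-25 against control (adjusted sign-flip p of 0.9375 or more).

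Over the 12 samples the genes with profiles most like each member were found by the root mean square difference of centred log2 scaled counts. The samples share their transfections and totals, so these are descriptions. For GLI1 they were GUSB, a lysosomal enzyme used as a reference gene here (0.23), and COL1A1, the main fibrillar collagen chain (0.24), against a median of 0.55 over the tested genes. GUSB and COL1A1 belong, like GLI1, to the 14 genes at least 2-fold lower in 48 h replicate A. For GLI2 they were DVL3, a Wnt adaptor (0.10), and CSNK1E, a CK1 kinase (0.14), with a median of 0.30, and for GLI3 HDAC2, a histone deacetylase (0.11), and NLK, a kinase (0.11), with a median of 0.26. For ZIC2, CCND1, cyclin D1 (1.09), and DTX4, a Deltex-family protein of Notch signalling (1.10), came nearest, while the ZIC2 profile deviated from its own mean by 1.39. Over the 10 samples without 48 h replicate A the nearest genes were DTX3, another Deltex-family protein (0.20), and GUSB (0.22) for GLI1, CSNK1G2, a CK1 kinase (0.09), and DVL3 (0.11) for GLI2, and MAPK9, a JNK kinase (0.10), and KAT2A, a histone acetyltransferase (0.11), for GLI3. For ZIC2 they were WNT5B, a Wnt ligand (0.34), and CCND1 (0.39), against 0.91 around its own mean. None of the 4 members was among the 5 genes nearest to another, with or without replicate A.

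Other Hedgehog genes of the panel place these levels. Among 6 ligands and binding proteins, the ligands SHH, IHH and DHH were above background in 0 samples with at most 7 counts, HHIP in 1 and LRP2 in 4, while GAS1, a co-receptor, was above background in 12 with 18 to 35 counts. Of 4 transducers all were above background in 12 samples, and 3 had enough counts to be tested, SUFU, with a mean of 19.6 counts, being just under the limit of 20. SMO, the signal transducer at the membrane, was the only gene of the list called with all samples. It rose 1.73-fold in control samples (log2 fold change 0.79, SE 0.13, adjusted p = 0.0139, edgeR) and 1.64-fold in miR-25 samples (0.72, SE 0.15, adjusted p = 0.0394, edgeR). With positive control probes as the scale these values were 0.02 and 0.13 with no call, against panel medians of -0.64 and -0.46. Of 17 other alternatives, the call of SMO held in 12 for control and 9 for miR-25 samples, all with a positive log2 fold change. Among those of each mimic is the same fit on the summed counts of both mimics. It was lost in control samples without 24 h replicate A, B or C or 48 h replicate B, with adjusted p of 0.0667 to 0.109 (edgeR), and with a replicate block (0.0614). In miR-25 samples it was lost without any of these or 48 h replicate C, with 0.0625 to 0.179 (edgeR), and also with reference genes as the scale (0.0565), no filter on low counts (0.0595) and a replicate block (0.106).

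Of 10 kinases and ubiquitin ligase adaptors that act on GLI proteins, 9 were tested and none was called with all samples, with median log2 fold changes of 0.18 and 0.17 beside 0.13 and 0.09 over the panel. Without 48 h replicate A, 3 of the 9 were called in control samples and 2 in miR-25 samples, beside 39.7% and 45.6% of the panel. In control samples these were the CK1 kinases CSNK1D, CSNK1A1 and CSNK1G1, all higher, CSNK1D most clearly (0.47, SE 0.062, adjusted p = 0.000555, edgeR). In miR-25 samples they were CSNK1D and CSNK1A1, both higher. CSNK1E, another CK1 kinase of the list, had 0.11 (adjusted p = 0.255, edgeR) in control and 0.03 (adjusted p = 0.729, edgeR) in miR-25 samples. With positive control probes the called kinases turned to between -0.02 and -0.28 with no call. With TMM or reference genes as the scale CSNK1D alone of the 3 kept its call, in both mimics. Of 5 genes known as GLI targets, FOXA2 was above background in 0 samples and HHIP in 1, and GLI1, CCND1 and CCND2 were tested. Without 48 h replicate A they moved apart: GLI1, itself a member, rose as given above, and CCND1 fell by 1.17 (SE 0.12, adjusted p = 0.000161, edgeR) in control and by 1.31 (SE 0.13, adjusted p = 0.000110, edgeR) in miR-25 samples on the log2 scale, while CCND2 had -0.17 and -0.16 with no call. CCND1 had -1.76 and -1.77 with positive control probes and was still called. GAS1 rose in control samples (1.16, SE 0.31, adjusted p = 0.0183, edgeR) and had 0.60 (adjusted p = 0.143, edgeR) in miR-25 samples, and with positive control probes its value in control samples was 0.56 with no call. The 5 reference genes, none of which was called with all samples, then had 2 higher (GUSB, TUBB) in control samples, and 3 higher (GUSB, TUBB, GAPDH) and 1 lower (CLTC) in miR-25 samples, but with positive control probes TUBB turned to -0.42 and -0.29 and GAPDH to -0.35 in miR-25 samples, with no call. In the miR-25 comparisons on all 12 samples, scaled by the total, 0 genes of these lists were called by edgeR. CCND1 was called at 24 h when 24 h was fitted alone (log2 fold change 0.12, adjusted p = 0.00417, edgeR) or without 48 h replicate A (0.12, adjusted p = 0.00117, edgeR), against an adjusted p of 0.542 with all samples. On the scale of positive control probes 10 genes of the lists were called at 48 h and 9 over both, all higher, beside panel medians of 0.27 and 0.19.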

How the data were processed

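The authors deposited raw counts per probe from the Digital Analyser and nSolver 3.0, before background correction or scaling; the counts are those of 199 genes, 8 negative and 6 positive control probes in 12 samples, from 50 ng of RNA each. Identifiers were named from the panel sheet (193) or a GRCh38.p14 gene table (6). Samples were grouped by their labels, with A, B and C for replicates 1, 2 and 3. The 4 members and all gene lists were chosen with earlier results of these data known.

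The quasi-likelihood test of edgeR 4.0.16 (in R 4.3.3) was run on the counts of the 136 genes that averaged 20 counts or more, with the sum over all genes as library size and a Benjamini-Hochberg adjusted p under 0.05 as the threshold. 48 h against 24 h was fitted per mimic on 6 samples without a block. miR-25 against control was fitted on all 12 with the transfection pair as a block, because the deviations of both samples of a transfection from their group means correlated (0.283 to 0.887); across time points same-numbered samples did not (-0.091 to 0.063). No pair of replicates agreed within sampling noise. For 48 h against 24 h the p-values measure the spread between transfections of 1 line. For miR-25 against control they measure how the difference within a pair varied between the transfections of that line. Intervals are 95%, exact Poisson for counts and from the Poisson error of both counts for ratios, and cover counting error only. Genes named were the members, their 2 nearest profiles and up to 4 called genes per list. Scripts were tested on simulated data. DESeq2 1.42.0, limma 3.58.1 (log2 with pseudocounts of 1 or 10, or with background subtracted), other scalings, filters, blocks and left-out transfections were alternatives, and python 3.11.15, numpy 2.4.6, pandas 2.3.3, scipy 1.17.1 and matplotlib 3.10.9 were used.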

Additional observations from a re-analysis of the deposited data

How the results depend on the processing

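No alternative gave a member a call at 24 h or for the difference between time points. With positive control probes as the scale, 2 members (GLI2, GLI3) were called for miR-25 at 48 h and 2 over both time points, where ZIC2 turned to 0.27 and 0.19 on the log2 scale. On the same scale the values of 48 h over 24 h turned, in control samples, to -0.19 (GLI1), -0.43 (GLI2), -0.70 (GLI3) and -0.18 (ZIC2), and in miR-25 samples to -0.22 (GLI2) and -0.47 (GLI3), none of them called. With reference genes GLI3 had -0.014 and -0.040. DESeq2 called 1 member for 48 h over 24 h in miR-25 samples. ZIC2 turned to -0.30, -0.76 and -0.039 in control and -0.58, -1.06 and -0.24 in miR-25 samples with limma (pseudocount 1, background subtracted, pseudocount 10). With a replicate block across time points, which the numbers do not pair, 0 members and 0 genes were called, and ZIC2 had -0.15 in miR-25 samples; with no replicate block for miR-25 against control, 0 members and 0 genes were called, and ZIC2 had 0.015 over both. Subtracting the negative probes turned the time difference of GLI1 to GLI2 to -0.020.

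Leaving out 1 transfection at a time gave 0 to 2 called members for 48 h over 24 h in control and 0 to 3 in miR-25 samples, all calls coming without 48 h replicate A. The log2 values ranged from -1.75 to 1.41 (control) and -1.96 to 1.26 (miR-25) for ZIC2 and from -0.044 to 0.15 for GLI3 in control samples. For miR-25 against control the ranges were -0.15 to 0.32 (GLI1, 24 h), -0.14 to 0.23 (ZIC2, 24 h), -0.049 to 0.18 (GLI3, 48 h) and -0.13 to 0.052 (ZIC2, over both).

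With 48 h replicate A left out, alternatives chosen after seeing the data gave 1 called member in control samples with positive control probes, 1 with DESeq2 and 1 with a mean of at least 50 counts, for which ZIC2 was not tested. Leaving out another transfection gave 1 to 3 in control and 1 to 3 in miR-25 samples, with a lone 48 h sample assumed to vary like those of 24 h. GLI2 turned to -0.25 (control) and -0.14 (miR-25) with positive control probes. GLI3 in control samples turned to -0.047 (TMM), -0.030 (reference genes), -0.54 (positive control probes) and -0.063 (DESeq2), with -0.078 to 0.15 on leaving out another transfection, and in miR-25 samples to -0.30 with positive control probes.

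Panel counts more than 1.5 times apart from those in the report were, for 48 h over 24 h, 26 genes in control and 50 in miR-25 samples with positive control probes, 22 and 33 with DESeq2, and 17 in miR-25 samples with TMM or all 12 samples and 6 with no filter. Leaving out 1 transfection gave 1 to 54 and 0 to 62. For miR-25 they were 3 genes at either time point fitted alone, 3 at 48 h and 2 over both with no filter, and 51 and 48 with positive control probes. Leaving out 1 transfection gave 0 to 3 genes at 24 h (3 without 48 h replicate A, among them CCND1), 0 to 2 at 48 h (2 without 48 h replicate C) and 0 to 2 over both (2 without 48 h replicate A). The call at 48 h was also lost with reference genes, no replicate block or limma with background subtracted, and 1 gene was called over both with DESeq2 or limma with a pseudocount and for the difference between time points with TMM, positive control probes, DESeq2 or no filter. Without 48 h replicate A, leaving out 48 h replicate B as well gave 34 genes in control and 40 in miR-25 samples, and leaving out C gave 39 in miR-25 samples. The split of 37 higher and 17 lower in control samples without 48 h replicate A was 31 and 29 with TMM and 1 and 20 with positive control probes. Counts of 4 to 102 limit ZIC2 and GLI1 most.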
